A study of Mus musculus with 10 samples.

Results

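The expression of 9 genes for receptors that hold blood progenitors in the marrow or guide them to it was described in LSK cells and GMP of mice with and without Dnmt3a. The genes were chosen by name for their function. They are the chemokine receptor gene Cxcr4, the integrin genes Itga4, Itgb1, Itgb7, Itgal, Itgam and Itgb2, the selectin ligand gene Selplg and the hyaluronan receptor gene Cd44, and all 9 were found among the 38086 gene IDs present in both deposited count tables. LSK cells, sorted as Lin-, Sca1+ and cKit+, include haematopoietic stem cells together with multipotent progenitors. GMP (granulocyte-macrophage progenitors) are lineage-negative and lack Sca1, and carry cKit, CD34 and Fc gamma receptors. There were 3 LSK KO libraries (KO-1327, KO-1333, then KO-1334), 2 LSK CTRL libraries (CTRL-1326 and CTRL-1330), 3 GMP KO libraries (KO-178, KO-179, then KO-352) and 2 GMP CTRL libraries (CTRL-346 and CTRL-350), where numbers are those of the titles; values of single libraries follow this order. All mice were C57BL/6 of 12 months of age and carried floxed Dnmt3a alleles. KO mice also carried Mx1-Cre and CTRL mice did not. The labels give 5 injections of poly(I:C), which induces this promoter in blood-forming and some other cells, without saying that any group went without them. Since Cre was carried by KO mice alone, loss of Dnmt3a and presence of Cre cannot be told apart. Beyond these numbers the labels do not say whether libraries came from different animals. Sex, called from the counts as given below, differed between LSK CTRL-1326 and CTRL-1330, which therefore came from different animals. It also differed between LSK KO-1327 and the other LSK KO libraries. The p-values reflect the spread among libraries, which may be technical where libraries of a group are not known to come from different animals.

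Integrins are pairs of an alpha and a beta chain. The chain encoded by Itga4 pairs with that of Itgb1 to bind VCAM1 and fibronectin in the marrow, and with that of Itgb7 to bind MAdCAM1, the addressin of gut vessels. The chains of Itgal and Itgam both pair with that of Itgb2, the leukocyte beta chain, and bind ICAM family ligands and, for Itgam, also complement fragments. CXCR4 is the receptor for CXCL12, which marrow stroma makes and which retains stem and progenitor cells. PSGL-1, the product of Selplg, is the mucin on which leukocytes roll over selectins once it carries the right sugars, and CD44 binds hyaluronan and, when glycosylated, E-selectin.

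Promoter sequences of 6 of the 9 genes were at hand from RefSeq (GRCm38.p6), each a window from 250 bases before to 50 after the gene's start. Those of Cxcr4 and Itgam are shown as examples of genes that differed between LSK and GMP in both genotypes. Cd44 also differed in both, and its window is not shown. That of Itgb7 is shown because its KO libraries all lay below both CTRL libraries in LSK, though it did not pass there (edgeR adjusted p = 0.72). CpG sites, which Dnmt3a methylates, are in capitals.
Cxcr4, chr1:128592250-128592549, minus strand: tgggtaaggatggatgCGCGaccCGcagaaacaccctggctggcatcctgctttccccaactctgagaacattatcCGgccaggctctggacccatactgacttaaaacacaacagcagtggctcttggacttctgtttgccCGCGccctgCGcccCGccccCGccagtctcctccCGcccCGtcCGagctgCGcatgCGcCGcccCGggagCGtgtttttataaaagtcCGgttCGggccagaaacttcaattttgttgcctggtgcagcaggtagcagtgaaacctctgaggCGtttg
Itgb7, chr15:102231886-102232185, minus strand: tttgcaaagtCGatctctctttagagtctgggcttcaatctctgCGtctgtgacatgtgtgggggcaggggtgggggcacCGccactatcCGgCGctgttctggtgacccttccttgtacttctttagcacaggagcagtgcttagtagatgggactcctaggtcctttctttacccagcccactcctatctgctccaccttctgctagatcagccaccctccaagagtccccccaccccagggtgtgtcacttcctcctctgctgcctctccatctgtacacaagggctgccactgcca
Itgam, chr7:128062390-128062689, plus strand: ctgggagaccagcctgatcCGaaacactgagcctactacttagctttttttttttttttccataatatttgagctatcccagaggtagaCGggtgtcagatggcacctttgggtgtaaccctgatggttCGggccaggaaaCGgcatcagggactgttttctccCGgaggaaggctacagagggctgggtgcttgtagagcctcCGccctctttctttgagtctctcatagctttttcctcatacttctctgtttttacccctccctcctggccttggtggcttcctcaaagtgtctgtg
The Cxcr4 window held 20 CpG, a number that 26.5% of 32851 promoter windows of the same 300 bases reached, whereas the Itgb7 and Itgam windows held 5 and 6, reached by 62.0% and 56.4%. Of the windows not shown, that of Itgb1 held 27 CpG, that of Itga4 10 and that of Cd44 6. The motif GAGGAA, the core of the consensus of the myeloid factor PU.1, was searched on both strands, as TTCCTC on the other one. It was found 3 times in the Itgam window, 2 times in that of Cd44, and once each in those of Itgb7 and Itgb1, and 28.3% of all windows hold it. These are matches of letters, and no methylation or binding was measured in these libraries.

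The libraries held 29533371 to 30437981 reads on genes in LSK and 93850256 to 122658636 in GMP, and each of the 9 genes had between 986 and 51249 reads in every library. No pair of libraries of a group agreed within sampling noise. GMP KO-352 carries a description that names the LSK table, while its title, cell type and column put it in GMP, where it was kept. Levels are counts scaled to library size (CPM) and adjusted over all 10 libraries by TMM. Dnmt3a averaged 54.2 ± 2.98 CPM in LSK KO and 147 ± 3.81 in LSK CTRL, and 46.4 ± 23.5 CPM in GMP KO and 130 ± 20.6 in GMP CTRL (SD, n = 3 KO and 2 CTRL), and was lower in every KO library than in both CTRL libraries of its population. The sort markers followed the gates. Ly6a, which encodes Sca1, was at 17.7 to 21.6 CPM in LSK and 0.936 to 1.99 CPM in GMP, and Fcgr3, of the Fc receptors of the GMP gate, at 17.3 to 23.7 and 327 to 418 CPM. Counts of Xist and of Y-linked genes marked LSK KO-1333, KO-1334 and CTRL-1330 as female and the other 7 libraries as male.

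Levels of different genes were compared per kilobase of exon (CPM per kb, exon lengths from GENCODE vM21). Cxcr4 stood first and Itgb1 second in all 4 groups. Cxcr4 averaged 92.4 ± 6.60 CPM per kb in LSK KO, 93.3 ± 0.83 in LSK CTRL, 192 ± 9.26 in GMP KO and 212 ± 24.9 in GMP CTRL. Itgb1 averaged 77.2 ± 2.16, 80.3 ± 3.42, 79.9 ± 0.52 and 74.6 ± 6.64 CPM per kb in the same groups. Cd44 was next, at 34.9, 39.3, 52.1 and 52.9 CPM per kb. Libraries of neighbouring genes in this order did not overlap down to Cd44 in any group, nor between Cd44 and the gene after it in the 3 groups other than LSK KO. Below that, in LSK KO the order was Selplg, Itga4, Itgb2, Itgb7, Itgam and Itgal, from 29.7 to 7.74 CPM per kb, where Cd44 and Selplg, and Itgam and Itgal, overlapped. LSK CTRL had the same order with Itgb7 (17.8) just above Itgb2 (17.3), which overlapped, as did Itgam and Itgal. In GMP KO, Itgb2, Itga4, Selplg and Itgam lay between 33.1 and 26.04 CPM per kb and overlapped from neighbour to neighbour, with Itgal (17.2) and Itgb7 (8.90) below them. In GMP CTRL every neighbour from Selplg (40.6) to Itgal (13.95) overlapped with the next.

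**Figure D1:**
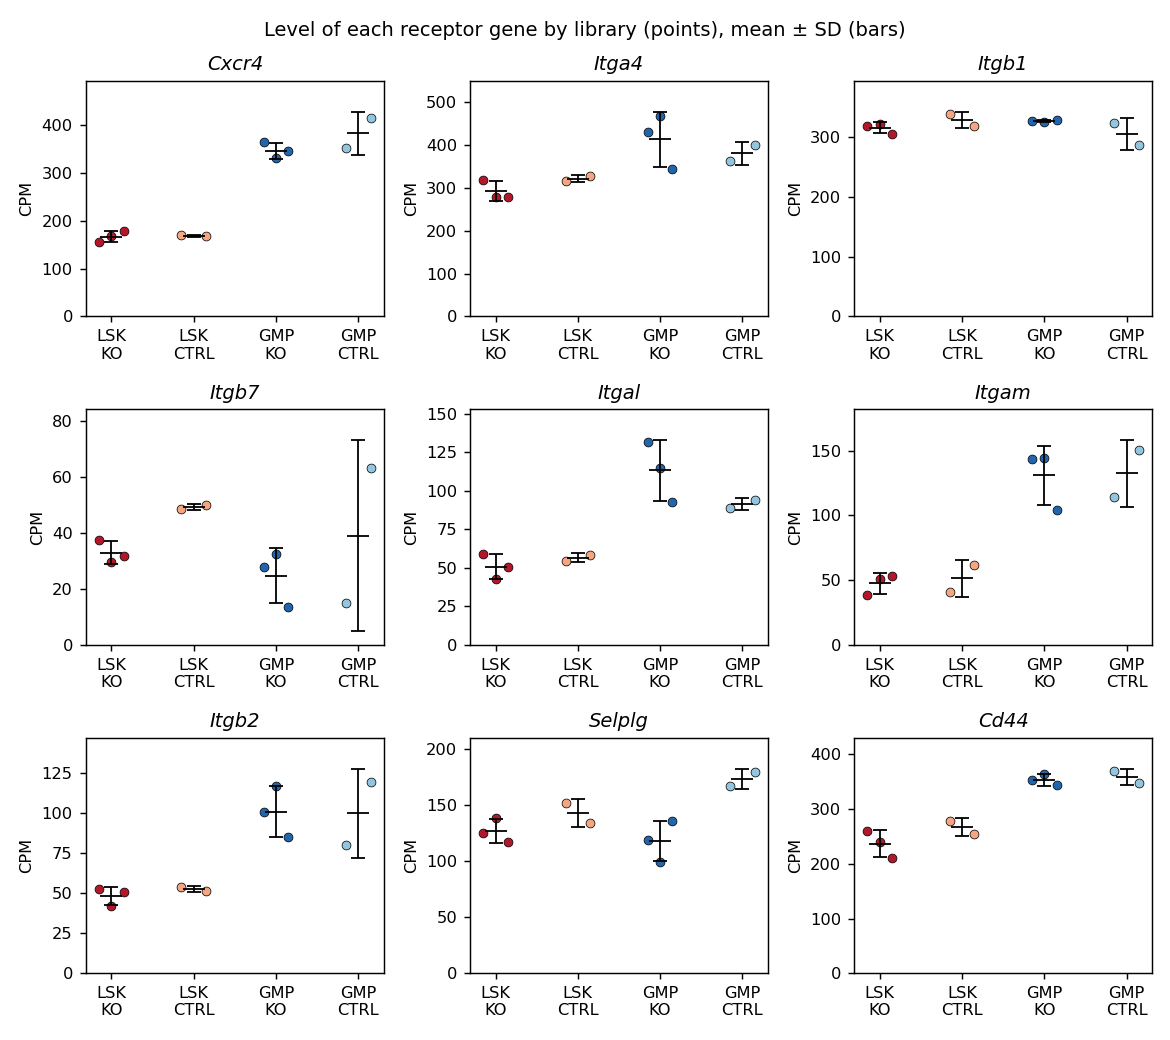
Level of each of the 9 genes in CPM (linear axes from 0) in the 10 libraries, by population and genotype. Points are libraries and bars the mean ± SD; Cxcr4, Itga4, Itgal, Itgam, Itgb2 and Cd44 stand lower in every LSK library than in every GMP library, and Itgb7 in GMP CTRL is split between 14.99 and 63.1 CPM.

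The clearest pattern was between the populations: the chemokine receptor, the beta2 integrin chains among the 9 genes (Itgal, Itgam and Itgb2) and Cd44 were lower in LSK than in GMP, in mice of both genotypes. Cxcr4 (ENSMUSG00000045382, chromosome 1, 128588199 to 128592293, GRCm38) was at 155, 167 and 179.04 CPM in LSK KO and at 364, 330 and 345 CPM in GMP KO. In CTRL mice it was at 169.7 and 167.6 CPM in LSK and at 351 and 415 CPM in GMP. No LSK library reached the lowest GMP library. The log2 fold change of LSK over GMP was -1.03 ± 0.09 in KO (SE, edgeR adjusted p = 4.54e-06) and -1.16 ± 0.11 in CTRL (adjusted p = 1.44e-05). Each population has its own count table, set of annotated genes and depth, so these cannot be told apart from the cells. The GMP libraries were all male and the LSK libraries of both sexes, and sex was not a term in the fit of LSK against GMP.

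The alpha chain gene Itgam (ENSMUSG00000030786, chromosome 7, 128062640 to 128118491), a marker of myeloid cells, had the largest fold. It was at 38.5, 51.1 and 53.2 CPM in LSK KO and at 144, 144 and 104 CPM in GMP KO, and at 41.2 and 61.5 CPM in LSK CTRL and at 114 and 150 CPM in GMP CTRL. The groups did not overlap in either genotype, and the log2 fold changes were -1.44 ± 0.20 in KO (edgeR adjusted p = 1.11e-04) and -1.35 ± 0.24 in CTRL (adjusted p = 8.59e-04). Within LSK the libraries called male, KO-1327 and CTRL-1326, had the lowest Itgam, at 38.5 and 41.2 CPM. The part of sex in the Itgam values of LSK against GMP was not tested. Itgam shares 3450 bases of exon with Gm49368 on the same strand, a gene with no row in the tables used here. Itgal (ENSMUSG00000030830, chromosome 7, 127296260 to 127335138), the alpha chain of LFA-1, was at 59.1, 43.1 and 50.3 CPM in LSK KO and at 132, 115 and 92.7 CPM in GMP KO. In CTRL it was at 54.4 and 58.5 CPM in LSK and at 88.9 and 94.3 CPM in GMP. Its log2 fold changes were -1.13 ± 0.15 in KO (edgeR adjusted p = 6.95e-05) and -0.68 ± 0.18 in CTRL (adjusted p = 0.0078), and the CTRL call was lost without LSK CTRL-1326 (adjusted p = 0.052, range over its alternatives 5.49e-04 to 0.052). Their beta chain gene Itgb2 (ENSMUSG00000000290, chromosome 10, 77530252 to 77565708) was at 52.5, 41.9 and 50.7 CPM in LSK KO and at 100.4, 117 and 85.4 CPM in GMP KO. In CTRL it was at 54.1 and 51.4 CPM in LSK and at 80.4 and 119.6 CPM in GMP. It was lower in all LSK libraries, with log2 fold changes of -1.04 ± 0.16 in KO (edgeR adjusted p = 2.84e-04) and -0.90 ± 0.20 in CTRL (adjusted p = 0.0031). Cd44 (ENSMUSG00000005087, chromosome 2, 102811141 to 102901665) was at 259, 239 and 211 CPM in LSK KO and at 351.8, 364 and 343 CPM in GMP KO. In CTRL it was at 278 and 254.5 CPM in LSK and at 369 and 348 CPM in GMP. This smaller difference passed in both genotypes, at -0.56 ± 0.09 in KO (edgeR adjusted p = 2.94e-04) and -0.41 ± 0.11 in CTRL (adjusted p = 0.0082), but in CTRL not without GMP CTRL-346 (adjusted p = 0.051) or LSK CTRL-1330 (0.066).

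The genes of the integrins that bind VCAM1 had smaller differences between LSK and GMP. Itga4 (ENSMUSG00000027009, chromosome 2, 79255426 to 79333123) was at 320, 279 and 280 CPM in LSK KO and at 431, 468 and 343 CPM in GMP KO, a log2 fold change of -0.48 ± 0.11 (edgeR adjusted p = 0.0040). In CTRL it was at 316 and 328 CPM in LSK and at 362 and 399 CPM in GMP, which did not pass (-0.22 ± 0.14, edgeR adjusted p = 0.19). The LSK libraries lay below the GMP libraries in both genotypes, and the difference between these effects did not pass either (-0.26 ± 0.18, edgeR adjusted p = 0.63). Itga4 shares 1124 bases of exon with Cerkl on the other strand, a gene at 2.80 to 4.56 CPM, and the sources used here do not say whether counting used strand. Itgb1 (ENSMUSG00000025809, chromosome 8, 128685654 to 128733200), the widely expressed beta chain, was at 319, 322 and 305 CPM in LSK KO and at 327, 324 and 328 CPM in GMP KO. In CTRL it was at 338 and 318 CPM in LSK and at 324 and 285 CPM in GMP. Neither difference passed, and the 95% interval of the log2 fold change was -0.19 to 0.13 in KO and -0.07 to 0.32 in CTRL. Selplg (ENSMUSG00000048163, chromosome 5, 113818536 to 113832644) did not pass either, at 0.13 ± 0.12 in KO (edgeR adjusted p = 0.37) and -0.26 ± 0.14 in CTRL (adjusted p = 0.15), and nor did Itgb7, at 0.44 ± 0.44 (adjusted p = 0.40) and 0.36 ± 0.53 (adjusted p = 0.59). Without GMP CTRL-350 the Itgb7 value in CTRL was 1.71 (edgeR adjusted p = 0.0070), and without GMP CTRL-346 it was -0.31 (adjusted p = 0.53).

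In all, 6 of the 9 genes were lower and 0 higher in LSK in KO mice, where 60.9% of 18836 genes passed in edgeR, 30.1% lower and 30.7% higher, and 5 were lower and 0 higher in CTRL mice, where 55.4% passed, 27.3% lower and 28.2% higher. DESeq2 and limma-voom called the same 6 and the same 5 genes. Libraries did not overlap for 7 of the 9 genes in each genotype, the called ones and Itgb1 in KO and the called ones, Itga4 and Selplg in CTRL, against 68.3% of all genes in KO and 78.5% in CTRL. The median log2 fold change of the 9 genes was -0.56 in KO and -0.41 in CTRL, and that of all genes, which go both ways, 0.08 and 0.12. Without sign, the median was 0.556 for the 9 genes and 0.796 for all genes in KO, and 0.409 and 0.845 in CTRL. By this measure the 9 genes differed less between LSK and GMP than all genes did. Summed markers of mature cells differed in this contrast, not all in the same direction. For 8 mature neutrophil genes the sum was 147 to 253 CPM in LSK and 640 to 4931 in GMP. For 6 monocyte and macrophage genes it was 188 to 286 and 2620 to 3887 CPM. None of these genes was at 0 in all libraries. By gene, S100a8, S100a9 and Cxcr2 of the neutrophil genes were higher in every GMP library than in every LSK library. Ltf, Ngp and Retnlg were lower in GMP KO-352 and CTRL-346 than in every LSK library, and Camp and Mmp8 overlapped. The sum of 5 erythroid genes went the other way, at 192 to 250 CPM in LSK and 3.51 to 56.8 in GMP, as did that of 4 megakaryocyte genes. The part of the neutrophil and monocyte markers in the lower levels of Itgam, Itgal and Itgb2 was not tested. In sorted populations fewer cells of a type and less RNA per cell cannot be told apart.

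**Figure D2:**
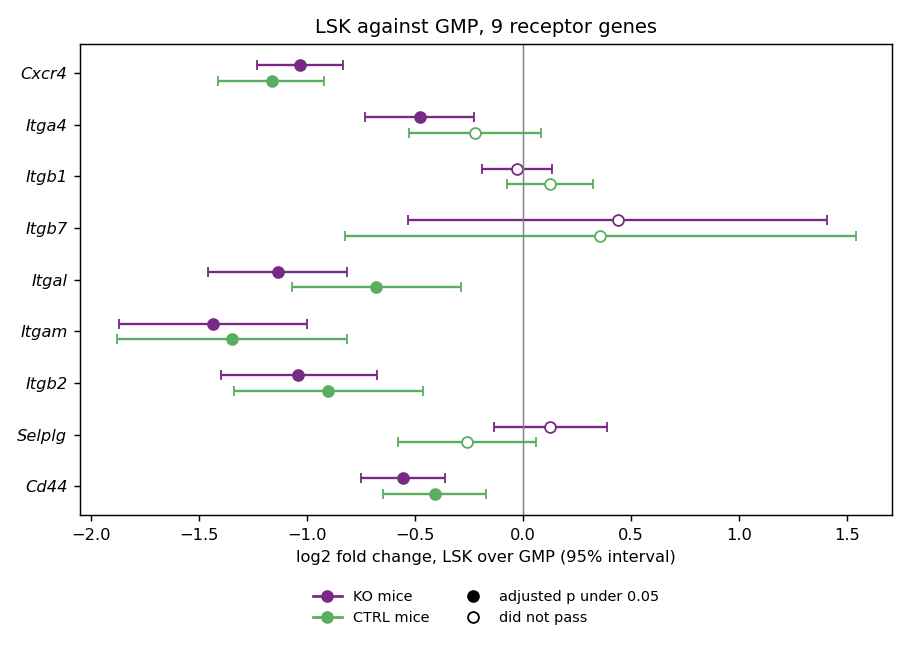
Log2 fold change of LSK over GMP for the 9 genes in KO mice (purple) and CTRL mice (green), with 95% intervals; filled points passed at an adjusted p under 0.05. Itgam lies lowest, at -1.44 and -1.35, and the intervals of Itgb1, Itgb7 and Selplg include 0 in both genotypes.

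Between KO and CTRL LSK, Itgb7 was the one receptor gene whose KO libraries all lay below both CTRL libraries. Itgb7 (ENSMUSG00000001281, chromosome 15, 102215995 to 102231944) was at 37.5, 29.7 and 31.6 CPM in LSK KO and at 48.6 and 50.04 CPM in LSK CTRL. The groups did not overlap. The log2 fold change was -0.58 ± 0.12 (SE, 95% interval -0.85 to -0.30), with an unadjusted p of 0.0010 in edgeR and no call once adjusted (edgeR adjusted p = 0.72). DESeq2 called it (adjusted p = 0.024) and limma-voom did not (adjusted p = 0.59), and the value ran from -0.68 to -0.49 over the alternatives, among them -0.56 with sex as a term. The summed level of 7 mast cell, basophil and eosinophil genes was also lower in LSK KO, with none of the 7 at 0 in all libraries. It was 92.6, 73.1 and 71.6 CPM in LSK KO against 128 and 103 CPM in LSK CTRL. By gene, only Hdc did not overlap, with KO-1334 at 20.40 CPM and CTRL-1330 at 20.54. Cpa3, Mcpt8, Prss34, Prg2, Epx and Cma1 overlapped between LSK KO and LSK CTRL, and Cma1 averaged higher in KO. For 5 MHC class II and dendritic markers the sum was 282, 249.8 and 173.9 CPM against 308.4 and 467.5 CPM. For 7 stromal and endothelial markers it was 93.0, 66.4 and 61.4 CPM against 107.6 and 93.3 CPM, so KO-1327 and CTRL-1330 were nearly equal. By gene, only Cxcl12 and Kdr of these markers did not overlap, and Cdh5 averaged higher in KO. Pdgfrb, which made most of the sum, was at 78.7, 43.3 and 40.5 CPM in LSK KO and at 91.6 and 55.1 in LSK CTRL. Its higher values were in the libraries called male, KO-1327 and CTRL-1326. The part of these sums in the Itgb7 value was not tested.

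The other 8 genes had log2 fold changes between -0.16 and -0.00 in LSK, none with an unadjusted p under 0.05, and their KO and CTRL libraries overlapped. Cxcr4 was the closest to 0, at -0.00 ± 0.08 with a 95% interval of -0.18 to 0.17. Itgb1 had -0.05 ± 0.08 (interval -0.23 to 0.14) and Itga4 -0.13 ± 0.10 (-0.35 to 0.09). Selplg, at 125, 139 and 117 CPM in KO and at 152 and 134 in CTRL, had -0.16 ± 0.09 (-0.36 to 0.03), and Cd44 -0.16 ± 0.10 (-0.39 to 0.06). For the 3 beta2 integrin chain genes among the 9 the intervals ran from -0.45 to 0.16 for Itgal, from -0.52 to 0.31 for Itgam and from -0.38 to 0.14 for Itgb2. All 9 values were negative, with a median of -0.13 against 0.0027 for all genes, and 0 of 9 passed in edgeR, where 0.0232% of 17238 genes did; 1 of 9 had an unadjusted p under 0.05, DESeq2 called 1 and limma-voom 0. Without sign, the median was 0.13 for the 9 genes and 0.0964 for all genes. The same KO and CTRL libraries enter all 9 values, so these values are not independent. All KO libraries lay below the CTRL libraries for 1 of 9, against 7.62% of all genes, and above them for 0 of 9, against 6.36%.

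In GMP, Selplg had the smallest p of the 9 genes. It was at 119, 99.6 and 135 CPM in GMP KO and at 167 and 179.7 CPM in GMP CTRL. All 3 KO libraries lay below both CTRL libraries. The log2 fold change was -0.57 ± 0.14 (95% interval -0.91 to -0.23), with an unadjusted p of 0.0058 and no call over all genes (edgeR adjusted p = 0.27), while DESeq2 called it (adjusted p = 0.019) and limma-voom did not (0.32). It ran from -0.68 to -0.46 over the alternatives, at -0.51 with the share of reads outside annotated genes as a term (edgeR adjusted p = 0.11) and -0.68 without KO-352 (adjusted p = 0.058). In GMP as in LSK, the summed level of the mast cell, basophil and eosinophil genes was lower in KO. It was 967, 1248 and 1008 CPM in GMP KO against 1622 and 4342 CPM in GMP CTRL. By gene, Cpa3 and Prss34 overlapped between GMP KO and GMP CTRL. The part of these genes in the Selplg value was not tested.

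Itgb7 in GMP varied more between libraries than between genotypes. It was at 27.6, 32.6 and 13.7 CPM in GMP KO and at 14.99 and 63.1 CPM in GMP CTRL, the last in CTRL-350. The CTRL libraries enclosed all KO libraries but KO-352. The log2 fold change of -0.67 ± 0.58 did not pass (edgeR adjusted p = 0.62), was 0.67 without CTRL-350 (adjusted p = 0.49), and passed, among the alternatives run, only with the share of reads outside annotated genes as a term (-1.15, adjusted p = 0.043). CTRL-350, where Itgb7 was highest, was also the GMP library with the highest summed level of mast cell, basophil and eosinophil genes, 4342 CPM against at most 1622 in the other 4. KO-352 and CTRL-346, where Itgb7 was lowest, had 1008 and 1622 CPM, so the order of the libraries was not the same for both. Other marker sums did follow the order of Itgb7 in GMP. For 5 MHC class II and dendritic markers the sum was 41.7, 178.5 and 19.7 CPM in GMP KO and 24.4 and 275.5 in GMP CTRL. For 4 megakaryocyte markers it was 67.7, 107 and 35.4 CPM in GMP KO and 56.7 and 116 in GMP CTRL. Itga2b, itself an integrin chain gene, made most of this last sum. It was at 63.4, 103 and 34.7 CPM in GMP KO and at 55.6 and 114 in GMP CTRL. The other megakaryocyte markers, Pf4, Ppbp and Gp1bb, did not follow the order of Itgb7. The part of these sums in the Itgb7 value was not tested.

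**Figure D3:**
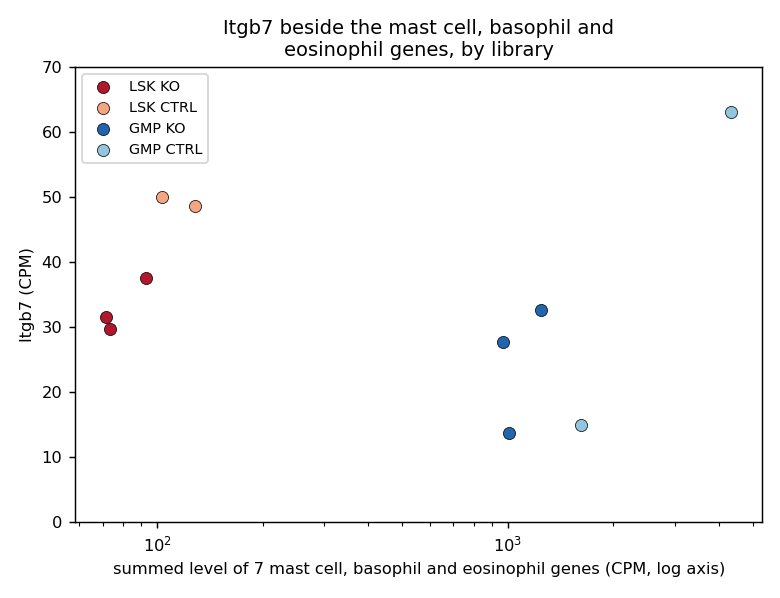
Itgb7 level (CPM, linear axis) against the summed level of 7 mast cell, basophil and eosinophil genes (CPM, log axis) in the 10 libraries, coloured by group. GMP CTRL-350 lies alone at 63.1 and 4342 CPM, and the LSK CTRL libraries lie above and to the right of the LSK KO libraries.

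None of the remaining genes passed in GMP, where the intervals were wider than in LSK for all of them. Cxcr4 had a log2 fold change of -0.16 ± 0.11 (95% interval -0.43 to 0.11), Itga4 0.11 ± 0.15 (-0.25 to 0.47), Itgb1 0.08 ± 0.11 (-0.18 to 0.34) and Cd44 -0.04 ± 0.10 (-0.28 to 0.21). Itgal had 0.29 ± 0.16 (-0.08 to 0.67), with 2 KO libraries above and 1 between both CTRL libraries. Itgam (-0.03 ± 0.18) and Itgb2 (0.00 ± 0.20) were near 0, and both genes were highest in CTRL-350, KO-178 and KO-179 and lower in CTRL-346 and KO-352. The same libraries had the higher share of reads outside annotated genes, 15.5%, 16.1% and 14.2% in KO-178, KO-179 and CTRL-350 against 10.3% and 8.5% in KO-352 and CTRL-346, and the higher mature neutrophil genes (2525, 4931 and 2569 CPM against 640 and 1063), and their part was not tested. In edgeR 0 of 9 genes passed, where 0.0347% of 17290 genes did; 1 of 9 had an unadjusted p under 0.05, DESeq2 called 1 and limma-voom 0. Signs were mixed, 4 positive and 5 negative, with a median of -0.03 against 0.01 for all genes. Libraries did not overlap for 2 of 9, Selplg, lower in KO, and Itgb1, higher in KO by a margin smaller than the SD of either group, against 32.3% of all genes.

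**Figure D4:**
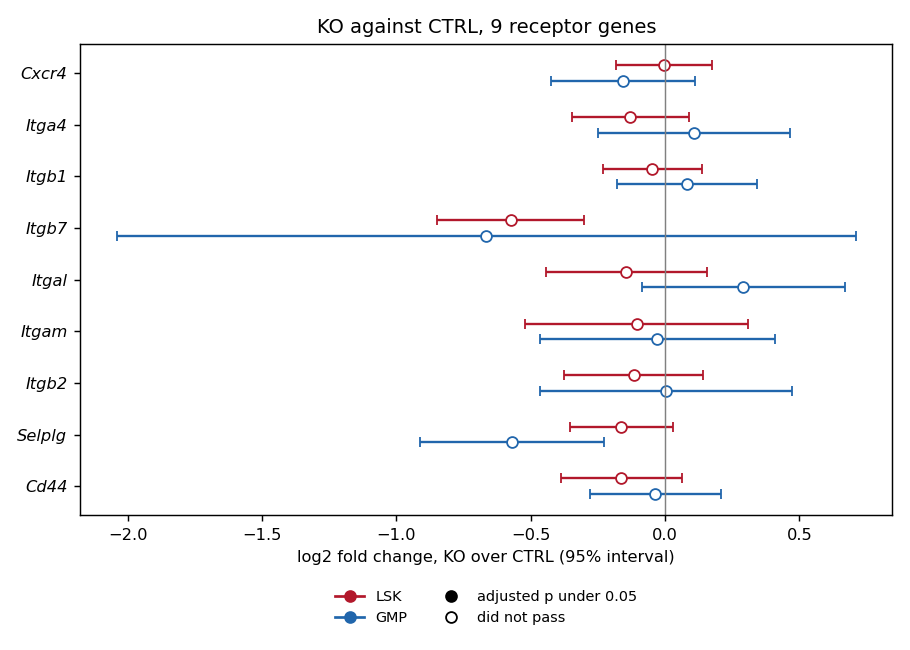
Log2 fold change of KO over CTRL for the 9 genes in LSK (red) and GMP (blue), with 95% intervals; open points did not pass at an adjusted p under 0.05, and none passed. Itgb7 in LSK (-0.58) and Selplg in GMP (-0.57) are the values whose interval leaves out 0, and Itgb7 in GMP has the widest interval, -2.04 to 0.71.

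The effect of KO was set against itself between the populations as the log2 fold change in LSK minus that in GMP, fitted over all 10 libraries. Selplg had 0.39 ± 0.19 (95% interval -0.03 to 0.80, edgeR adjusted p = 0.51) and Itgal -0.46 ± 0.23 (-0.96 to 0.05, adjusted p = 0.52), the largest in either direction. Itgb1 had -0.15 ± 0.12, Cd44 -0.15 ± 0.14, Itgb2 -0.14 ± 0.26, Itgam -0.09 ± 0.30 and Cxcr4 0.13 ± 0.14. Itgb7 had 0.08 ± 0.69, an interval of -1.44 to 1.61 that holds large differences in both directions. In edgeR 0 of 9 passed, where 0.0265% of 18836 genes did, 0 had an unadjusted p under 0.05, and DESeq2 and limma-voom called 0. So neither Itgb7 in LSK nor Selplg in GMP was shown to respond in 1 population more than in the other.

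The balance between chains that take the same partner was described per length, with no test. Itgb7 made 14.8%, 12.0% and 13.2% of the summed level of Itgb1 and Itgb7 in LSK KO, and 17.5% and 18.8% in LSK CTRL. All LSK KO libraries lay below the CTRL libraries. In GMP the share was 11.1%, 12.9% and 5.8% in GMP KO and 6.39% and 24.6% in GMP CTRL, which overlapped. Itgb1 made the larger share in all 10 libraries. Of the partners of Itgb2, Itgam made 55.0% ± 7.87 of the summed level of Itgal and Itgam in LSK KO and 53.8% ± 5.75 in LSK CTRL, and 60.1% ± 1.75 in GMP KO and 65.1% ± 3.47 in GMP CTRL (SD, n = 3 KO and 2 CTRL), and no GMP KO library reached the lower of the GMP CTRL libraries, at 62.1% against 62.7%.

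**Figure D5:**
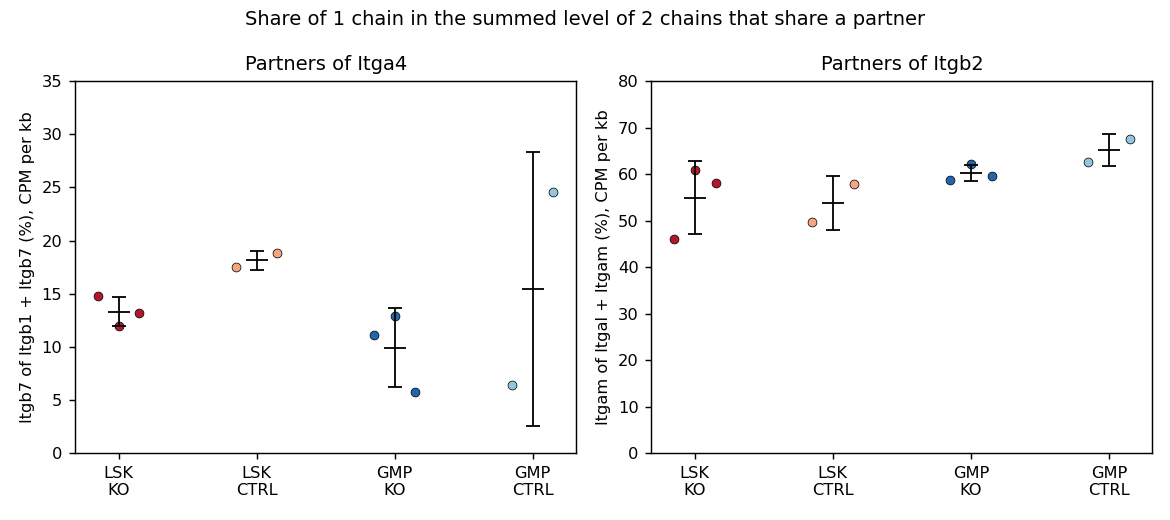
Share (%) of Itgb7 in the summed CPM per kb of Itgb1 and Itgb7 (left) and of Itgam in that of Itgal and Itgam (right), by library, with the mean ± SD. The LSK KO libraries lie at 12.0% to 14.8% for Itgb7 and the LSK CTRL libraries at 17.5% and 18.8%.

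Around these receptors, 157 further genes in 7 lists were followed: other integrin chains, integrin activators and linkers, enzymes that glycosylate or sulfate selectin ligands, other homing receptors, trafficking chemokine and lipid receptors, Cxcr4 signalling genes, and niche ligands and proteases. Between KO and CTRL none of them passed in edgeR in either population. Of 147 tested in LSK, 10 had an unadjusted p under 0.05 (DESeq2 called 1, limma-voom 0), and of 145 tested in GMP, 29 did (DESeq2 called 11, limma-voom 0), against 2.83% and 13.8% of all genes. In LSK 48 values were positive and 99 negative, with a median of -0.07 against 0.0027 for all genes, and in GMP 69 were positive and 76 negative, with a median of -0.02 against 0.011. Values given below with ± for these genes are log2 fold changes with their SE, unless in CPM.

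The GMP genes given first are those with the smallest p among glycosylation and sulfation genes and among activators and linkers. They were named by that rule, as for every list. Selp and S1pr4, of other lists, had a smaller p in GMP than Tln1 and Cyth1. Fut7, the fucosyltransferase that completes the selectin-binding sugar on PSGL-1, was at 31.9, 29.8 and 42.5 CPM in KO and at 59.2 and 73.8 in CTRL. Its log2 fold change was -0.95 ± 0.18 (edgeR adjusted p = 0.24), with all KO libraries below both CTRL libraries, as for Selplg. The list of glycosylation and sulfation genes had 6 positive and 10 negative values and a median of -0.10. St3gal6, a sialyltransferase, was at 0.91, 0.64 and 0.21 CPM in KO and 0.00 and 0.07 in CTRL, close to no expression. Tln1, which encodes the talin that links beta chain tails to actin, was at 1103, 944 and 1130 CPM in KO and at 1579 and 1434 in CTRL (-0.52 ± 0.12, edgeR adjusted p = 0.26), and Cyth1, a regulator of beta2 integrin adhesion, had -0.45 ± 0.12 (adjusted p = 0.28). Activators and linkers had 13 positive and 22 negative values with a median of -0.08.

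Among trafficking receptors in GMP, S1pr4, a sphingosine phosphate receptor, was at 20.5, 20.9 and 21.4 CPM in KO and at 30.1 and 33.4 in CTRL (-0.61 ± 0.12, edgeR adjusted p = 0.26). Ccr2, the monocyte chemokine receptor, stood the other way, at 389, 347 and 354 CPM in KO and at 167 and 248 in CTRL (0.80 ± 0.17, adjusted p = 0.26). The summed level of 6 monocyte and macrophage markers, none at 0 in all libraries, was 3414, 3887 and 3282 CPM in GMP KO and 2620 and 2910 CPM in GMP CTRL, without overlap, and its part in the Ccr2 value was not tested. Of these markers F13a1 averaged 1854 ± 329 CPM in GMP KO and 1114 ± 138 CPM in GMP CTRL, and Ly6c2 1304 ± 24.6 and 1302 ± 8.05 CPM (SD, n = 3 and 2). Csf1r (151 and 153 CPM), Cd68 (23.1 and 20.6) and Ms4a6c (177 and 148) overlapped between GMP KO and GMP CTRL. Adgre1 went the other way without overlap, at 18.5 CPM in KO and 27.8 in CTRL, so the markers did not rise as a set. In LSK Ccr2 was at 30.0, 36.9 and 27.4 CPM in KO and at 43.4 and 58.6 in CTRL (-0.70 ± 0.16, edgeR adjusted p = 0.93), and those markers summed to 188, 248 and 221 CPM in KO and 244 and 286 in CTRL, which overlap. DESeq2 called Ccr2 in both populations. The libraries were separated in opposite directions, and the difference of effects, -1.51 ± 0.27, did not pass in edgeR (adjusted p = 0.15), though it did in DESeq2. For this difference 0 of 149 list genes passed in edgeR and 20 had an unadjusted p under 0.05, where 10.1% of all genes did, and DESeq2 called 6 and limma-voom 0. Of homing receptors in GMP, the "do not eat me" signal gene Cd47 had 0.52 ± 0.15 (edgeR adjusted p = 0.31) and Robo4, a receptor of stem cells and endothelium, was at 0.57, 0.71 and 0.16 CPM in KO and at 0.07 and 0.04 in CTRL. Selp, the gene of P-selectin, was at 14.01, 12.5 and 4.51 CPM in KO and at 1.62 and 1.11 in CTRL (2.90 ± 0.54, adjusted p = 0.24), and the protease gene Mmp14 at 1.96, 3.55 and 0.42 against 0.06 and 0.33 CPM. The G protein gene Gnai2 had -0.47 ± 0.18 and the arrestin gene Arrb1 -0.33 ± 0.12 (both edgeR adjusted p = 0.34), and Cxcr4 signalling genes had 3 positive and 15 negative values. Of other integrin chains the smallest p were those of Itgad (0.88 ± 0.41) and Itgb5 (0.32 ± 0.17), neither under an unadjusted p of 0.05.

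In LSK, Ccr2 and Itga1 had the smallest p of the listed genes. Itga1, a collagen-binding chain, was at 3.995, 3.97 and 3.25 CPM in KO and at 6.47 and 6.54 in CTRL (-0.79 ± 0.19, edgeR adjusted p = 0.93), and Itgax, a dendritic cell chain, had -0.75 ± 0.23 (adjusted p = 0.9998). The list of other integrin chains had 3 positive and 15 negative values and a median of -0.20. Cxcr2, the neutrophil chemokine receptor, had -0.56 ± 0.17, the invariant chain gene Cd74 -0.69 ± 0.23, the G protein regulator gene Rgs1 -0.57 ± 0.20 and the fibronectin gene Fn1 -0.61 ± 0.20 (edgeR adjusted p = 0.9998 for each). Cxcl12, the ligand of CXCR4, was at 0.45, 0.87 and 1.48 CPM in KO and at 3.05 and 1.61 in CTRL. Summed markers of dendritic cells and MHC class II, of which 5 were measured and none was at 0 in all libraries, were at 174 to 282 CPM in KO and 308 to 468 in CTRL. Those of 7 stromal and endothelial genes were at 61.4 to 93.0 and 93.3 to 108, where by gene only Cxcl12 and Kdr did not overlap. The part of these sums was not tested. Cd74 is itself among these 5 markers and Cxcl12 among these 7, so each sum moves partly with a gene it is set beside. Tln2, the second talin gene, had 0.98 ± 0.35 at 1.84, 3.58 and 2.52 CPM in KO and 1.63 and 1.06 in CTRL (adjusted p = 0.9998). Apbb1ip (-0.22 ± 0.11) was next in that list. St3gal4 (0.21 ± 0.09), Galnt3 (0.42 ± 0.19), Cd84 (-0.24 ± 0.11) and Epha2 (0.50 ± 0.24) had the smallest p of their lists, and for all 5 the unadjusted p was above 0.05.

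Between LSK and GMP the same lists held many calls in both directions: 51 higher and 55 lower of 149 tested in KO mice, and 48 higher and 53 lower of 149 in CTRL mice. Over all genes 30.7% were higher and 30.1% lower in KO, and 28.2% and 27.3% in CTRL, and the counts below are to be read beside these shares. Of 35 activators and linkers, 9 were higher and 18 lower in KO, and 6 higher and 16 lower in CTRL. Among them the actin cross-linker gene Flna was at 1124 ± 23.2 CPM in LSK KO and 2075 ± 94.9 in GMP KO (-0.86 ± 0.07, edgeR adjusted p = 2.60e-06), and the GTPase gene Rhoa at 136 and 289 CPM (-1.07 ± 0.08, adjusted p = 2.48e-06). Src, a kinase that acts at adhesions, was at 8.67 and 6.94 CPM in LSK CTRL and 0.02 and 0.15 CPM in GMP CTRL. Of 18 other integrin chains tested, 8 were higher and 2 lower in KO, and 10 higher and 1 lower in CTRL. Itga3, a laminin-binding chain, was at 2.08 to 3.63 CPM over the LSK libraries and at 0.00 to 0.07 over the GMP libraries, whereas Itga1 was lower in LSK (-3.28 ± 0.30 in KO, edgeR adjusted p = 6.09e-06, and -3.10 ± 0.35 in CTRL, adjusted p = 5.00e-05).

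Receptor and ligand genes were called in both directions, where 60.9% of all genes passed in KO and 55.4% in CTRL. Of 25 homing receptors 13 were higher and 9 lower in LSK in KO, and 12 and 8 in CTRL. Robo4 was at 30.7 to 40.5 CPM over the LSK libraries and 0.04 to 0.71 over the GMP libraries, Tek, the receptor of angiopoietins, had 4.29 ± 0.30 in KO (edgeR adjusted p = 1.15e-06) and Kit, the receptor of stem cell factor, 1.76 ± 0.15 in CTRL (adjusted p = 6.35e-06). Ccr2 was lower in LSK, with log2 fold changes of -3.51 ± 0.18 in KO (edgeR adjusted p = 1.75e-07) and -2.01 ± 0.21 in CTRL (adjusted p = 3.01e-05). Cxcr2 was lower in LSK in KO mice (-1.72 ± 0.14, edgeR adjusted p = 3.28e-06), while P2ry14, a receptor for UDP-glucose, was higher in LSK in CTRL mice (2.14 ± 0.26, adjusted p = 7.23e-05). Of 19 trafficking receptors, 6 were higher and 7 lower in each genotype. Of Cxcr4 signalling genes Gnai3 was lower in LSK (-1.05 ± 0.09 in KO, edgeR adjusted p = 5.43e-06), Itch, a ubiquitin ligase that acts on CXCR4, was lower in LSK in CTRL mice (-0.62 ± 0.10, adjusted p = 3.61e-04) and Arrb1 higher in KO mice (0.70 ± 0.08, adjusted p = 4.61e-05), with 4 of 18 higher and 6 lower in KO and 4 higher and 8 lower in CTRL. C1galt1c1, the chaperone of the enzyme that builds O-glycans, was lower in LSK KO (-1.91 ± 0.10, edgeR adjusted p = 1.62e-07), as was B4galt1, a galactosyltransferase (-1.22 ± 0.08, adjusted p = 6.26e-07), with 5 of 16 glycosylation genes higher and 7 lower in KO and 4 and 7 in CTRL. The protease gene Ctsg had -4.16 ± 0.12 in KO (adjusted p = 5.94e-09) and Vcam1, the ligand of the Itga4 integrins, -3.77 ± 0.24 (adjusted p = 6.04e-07), and the 18 niche ligands and proteases had 6 higher and 6 lower in each genotype.

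The gene whose level followed each receptor most closely was looked up among 9087 genes with a mean of at least 10 CPM, by Pearson's r of log2 CPM over the 10 libraries. It was Birc5 for Cxcr4 (r = 0.996), Ankhd1 for Itga4 (0.976), Cpped1 for Itgb1 (0.924), Ier5 for Itgb7 (0.958), Fam122b for Itgal (0.991), Setdb1 for Itgam (0.989), Rgs10 for Itgb2 (0.988), Cyth1 for Selplg (0.959) and Ogfrl1 for Cd44 (0.989). The points share population, count table and depth, which move with these levels. With each level taken as its deviation from the mean of its population, the closest were Arhgap27 for Cxcr4 (0.885), Smg6 for Itga4 (0.959), Dpy19l3 for Itgb1 (0.948), Rgs2 for Itgb7 (0.965), Setd1a for Itgal (0.953), Tbc1d8 for Itgam (0.904), Ccng2 for Itgb2 (0.977), Slc25a11 for Selplg (0.975) and Kctd1 for Cd44 (0.933). These are the highest of 9087 values for each gene and are a description.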

How the data were processed

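LSK cells and GMP were sorted from lineage-depleted bone marrow, and libraries were made from total RNA after removal of ribosomal RNA with a kit that keeps strand, per the labels' protocols. The authors deposited raw counts of reads per Ensembl gene, 1 table per population. Per the submitters' processing notes, DESeq2 1.4.5, DESeq 1.18.0, HTSeq 0.5.3p3 and STAR were used with mm10 (GRCm38); annotation release and strand setting: not given in the sources used here. Lines that name no gene were left out of totals and tests: in GMP, reads outside genes made 8.5% to 16.1% of each library's listed reads and reads aligned to several places 26.3% to 29.0%. The deposited normalized tables were not used.

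Counts were fitted with edgeR 4.0.16 (R 4.3.3) by the quasi-likelihood test, with TMM scaling, filterByExpr at a minimum count of 10 and Benjamini-Hochberg adjustment over all genes tested, at 0.05. KO against CTRL was fitted within each population. LSK against GMP and the difference of KO effects were fitted over all 10 libraries and the 38086 gene IDs in both tables. The SE is the log2 fold change divided by the root of F, and intervals are at 95%. DESeq2 1.42.0 and limma-voom (limma 3.58.1), other scaling, no filter, thinned GMP counts, sex or reads outside genes as a term, and each library left out were the alternatives. The scripts were tested on simulated counts. LSK libraries were shallower, so counting error is larger there. Lengths and positions are from GENCODE vM21, and promoters from RefSeq. All 9 genes are named, and from each list up to 2 genes with the smallest p in a comparison. The 9 genes and the lists were chosen with earlier results of these data known, so nothing here is independent support for those results.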

Additional observations from a re-analysis of the deposited data

How the results depend on the processing

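No paired analysis was possible because the numbers in the titles differ between all libraries, so no number is shared between groups. Of 603 values of the 9 genes under alternatives, 567 kept their direction and side of the threshold, 3 lost a call, 5 gained one and 28 changed sign; in the last, the cause was not tested. The number of the 9 genes called between KO and CTRL was 1 with DESeq2 in each population and 1 with reads outside genes as a term in GMP, and 0 with each library left out. It was 6 to 7 for LSK against GMP in KO and 4 to 6 in CTRL with each library left out. Over all genes, calls between KO and CTRL in GMP numbered 6, and 50 with no filter, 703 with DESeq2, 0 with limma-voom, 182 with all 10 libraries fitted together, 205 with reads outside genes as a term, and 1 to 172 with a library left out, the highest without KO-352. In LSK they numbered 4, and 27 with no filter, 20 with DESeq2, 0 with all libraries together and 3 to 11 with a library left out, the highest without CTRL-1326. For the difference of effects they numbered 5, and 38 with no filter, 221 with DESeq2, 2 with limma-voom and 1 to 513 with a library left out, the highest without GMP KO-352. Between LSK and GMP they ran from 9909 to 11426 in KO and 8044 to 10594 in CTRL with a library left out.

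Signs changed as follows. Itgb2 in GMP was -0.0091 with DESeq2's size factors and with DESeq2, -0.0036 with no filter and -0.19 with reads outside genes as a term, and Itga4 in GMP was -0.030 with that term. The Itgb7 difference of effects was -0.19 with limma-voom, and Itgb1 in LSK against GMP in KO was 0.019 with thinned counts. With a library left out, the KO effect in GMP ran from -0.033 to 0.20 for Itgb1, -1.35 to 0.67 for Itgb7, -0.20 to 0.15 for Itgam, -0.24 to 0.28 for Itgb2 and -0.11 to 0.024 for Cd44. In LSK it ran from -0.060 to 0.043 for Cxcr4 and -0.38 to 0.24 for Itgam. The difference of effects ran from -1.26 to 0.76 for Itgb7, -0.35 to 0.23 for Itgam and -0.41 to 0.11 for Itgb2, and LSK against GMP from -0.040 to 0.0014 for Itgb1 in KO and -0.31 to 1.71 for Itgb7 in CTRL. Selplg in LSK against GMP in KO passed without GMP KO-352 (0.26, edgeR adjusted p = 0.043, range over its alternatives 0.043 to 0.79). With no division by length the share of Itgb7 was 9.45% in LSK KO and 13.1% in LSK CTRL, and that of Itgam 47.2% in LSK CTRL, 53.6% in GMP KO and 58.9% in GMP CTRL; this follows from the lengths.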
